A study of Mus musculus with 9 samples.

Results

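Transcripts of 10 genes of the BCL2 family were followed in mouse round spermatids (RS), the haploid cells that follow meiosis. The genes are Bcl2, Bcl2l1, Bcl2l2 and Mcl1, which encode inhibitors of apoptosis, Bax and Bak1, which encode the effectors, and Bad, Bid, Bcl2l11 and Bbc3, which encode BH3-only proteins. They were taken by gene name from the table of read counts, with no threshold on a measured value, and make up 10 of the 55414 genes listed and 10 of the 25128 genes tested. Sorted RS were kept in culture for 24 h in 1 of 3 conditions, each with 3 libraries: vehicle, which was 0.15% DMSO; oxamate at 24 mM; or both compounds, oxamate at 24 mM together with octyl-L-2HG at 0.3 mM. Oxamate inhibits lactate dehydrogenase, whose testis isoenzyme LDHC makes L-2-hydroxyglutarate (L-2HG) in mouse germ cells, and octyl-L-2HG is an ester of L-2HG that enters cells. The comparisons therefore ask which transcripts differ when lactate dehydrogenase, and with it L-2HG synthesis, is inhibited and which differ when L-2HG is added back to inhibited cells. Oxamate acts on several isoforms of the enzyme, so that its comparison with vehicle is not specific to L-2HG. The study does not fully exclude that energy imbalance accounts for some of its effects. All groups were in the same lactate- and pyruvate-containing medium with dialyzed serum and had the same final DMSO. The labels give the cells as wild type, from testis. By the study's methods RS were sorted from adult Stra8-Tom mice on a C57Bl/6 background, in which a Cre recombinase under the Stra8 promoter switches on tdTomato in germ cells. No group with octyl-L-2HG alone was analysed here, so that a difference between the last group and vehicle belongs to both compounds together. The study describes its incubations as triplicates, whether the cells came from separate mice is not given in the sources used here, and p-values measure the spread between these libraries.

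BCL2 proteins decide whether the outer mitochondrial membrane is permeabilized, the step that commits most cells to apoptosis. The effectors BAX and BAK form the pore, inhibitors such as BCL-XL (Bcl2l1), MCL1, BCL-W (Bcl2l2) and BCL2 hold them in check, and BH3-only proteins such as BIM (Bcl2l11), PUMA (Bbc3), BAD and BID relieve that inhibition or activate the effectors. In the testis apoptosis removes many germ cells in each wave of spermatogenesis, and mice without Bax or without Bcl2l2 have infertile males.

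Depth ranged from 32339533 to 39888396 counted reads per library. Within groups, every pair of libraries differed beyond sampling noise (chi-square over degrees of freedom 2.1 to 23.3). Vehicle libraries are numbered 1 to 3, oxamate libraries 4 to 6 and those with both compounds 7 to 9. Oxamate library 4 stood apart from oxamate libraries 5 and 6, and counts of calls that changed without it are given both ways. Vehicle library 1 also differed more from libraries 2 and 3 (11.9 and 11.3) than these did from each other (6.48). Calls of members or other named genes that were lost without library 1 are given with the gene. All 10 markers of round spermatids were detected, with summed levels between 1779 and 2047 CPM (counts scaled to the counted reads of the library), against 153 to 195 CPM for 6 spermatocyte markers. Markers of spermatogonia, Sertoli, Leydig, peritubular, leukocyte and endothelial cells summed to at most 6.97 CPM per list in any library, and 4 globin genes to at most 0.0273 CPM. In bulk RNA, fewer cells with a transcript and less of it per cell cannot be told apart.

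Promoter sequences are shown for the members with the largest called fall and the largest called rise. Windows of 300 bases, 250 before and 50 after each transcription start, were taken from RefSeq on GRCm38.p6, with 16 windows for the 10 genes. Capitals mark each match, on either strand, to the FOXO site GTAAACA or the GC box GGGCGG. FOXO proteins are known activators of Bcl2l11 and Bbc3 transcription, and GC boxes bind SP1-type factors.
Bcl2l11, first start, chr2:128125788-128126087 (+): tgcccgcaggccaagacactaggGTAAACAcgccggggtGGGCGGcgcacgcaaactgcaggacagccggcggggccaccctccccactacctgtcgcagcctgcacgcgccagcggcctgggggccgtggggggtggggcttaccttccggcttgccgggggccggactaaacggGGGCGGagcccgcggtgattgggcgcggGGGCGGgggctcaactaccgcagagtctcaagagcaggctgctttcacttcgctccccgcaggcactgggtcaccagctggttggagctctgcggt
Bcl2l11, second start, chr2:128127325-128127624 (+): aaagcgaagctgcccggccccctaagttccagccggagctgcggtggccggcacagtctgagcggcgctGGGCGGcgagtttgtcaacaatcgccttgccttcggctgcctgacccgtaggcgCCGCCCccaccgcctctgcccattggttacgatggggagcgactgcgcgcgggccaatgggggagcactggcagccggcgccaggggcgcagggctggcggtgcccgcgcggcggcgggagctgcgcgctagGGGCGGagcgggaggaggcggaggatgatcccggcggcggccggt
Bak1, chr17:27028578-27028877 (-): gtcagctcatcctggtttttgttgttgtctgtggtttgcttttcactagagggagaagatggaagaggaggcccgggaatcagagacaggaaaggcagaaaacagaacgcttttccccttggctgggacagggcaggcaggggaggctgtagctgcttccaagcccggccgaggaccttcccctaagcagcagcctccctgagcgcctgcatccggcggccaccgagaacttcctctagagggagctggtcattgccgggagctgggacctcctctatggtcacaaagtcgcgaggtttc

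The FOXO letters stood in 2 of the 16 windows, at -227 from the first Bcl2l11 start and at -167 from a Bbc3 start, and in 3.6% of the 32851 promoter windows of all genes. GC boxes stood in 11 windows of 8 members and in 35.7% of all windows. The Bcl2l11 windows held 3 GC boxes each, and members called in no comparison, Bax and Mcl1 among them, held GC boxes too. The Bak1 window, the 3 Bcl2l1 windows and the second Bad window held none of the motifs searched. The other motifs were the CRE TGACGTCA, its core TGACG, which also lies within the CRE, the E-box CACGTG and the TATA box TATAAA. The CRE and the TATA box were in no member's window and in 1.8% and 13.6% of all windows, the CRE core was in 3 member windows and in 20.8% of all windows, and the E-box was in 2 and in 7.2%. These matches describe letters in the windows and say nothing about binding.

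In vehicle-treated RS, transcripts of the family spanned almost the whole range of expression. Levels between genes were compared as RPKM, the count per kilobase of exon scaled to the counted reads of the library. Bcl2l1 was highest, at 25.6 ± 1.70 RPKM (SD, n = 3), which lay at percentile 90.0 of the 25027 tested genes with a length. Mcl1 at 16.6 ± 0.410 and Bad at 14.3 ± 1.99 followed, and the SD ranges of these neighbours overlapped. Bak1 stood at 4.59 ± 0.149 and Bcl2l11 at 0.994 ± 0.0942, at percentiles 74.0 and 56.1. Bbc3 at 0.314 ± 0.0212 and Bcl2l2 at 0.133 ± 0.0201 were low. Bax at 0.0651 ± 0.0304 and Bid at 0.0242 ± 0.0107 were at percentiles 20.3 and 9.1 with overlapping SD ranges, and Bcl2 at 0.00381 ± 0.00331 was at percentile 0.5. The order was the same with oxamate. With both compounds Bcl2l2 at 0.190 ± 0.0177 and Bbc3 at 0.198 ± 0.0272 had overlapping SD ranges. Each functional class was thus made up mostly of 1 or 2 transcripts. Of the summed length-scaled level of the 4 inhibitors, Bcl2l1 made up 58.7 to 64.0% and Mcl1 35.7 to 41.1% over the 9 libraries. Bak1 made up 98.0 to 100% of the 2 effectors, and Bad 91.1 to 95.7% of the 4 BH3-only genes.

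**Figure D1:**
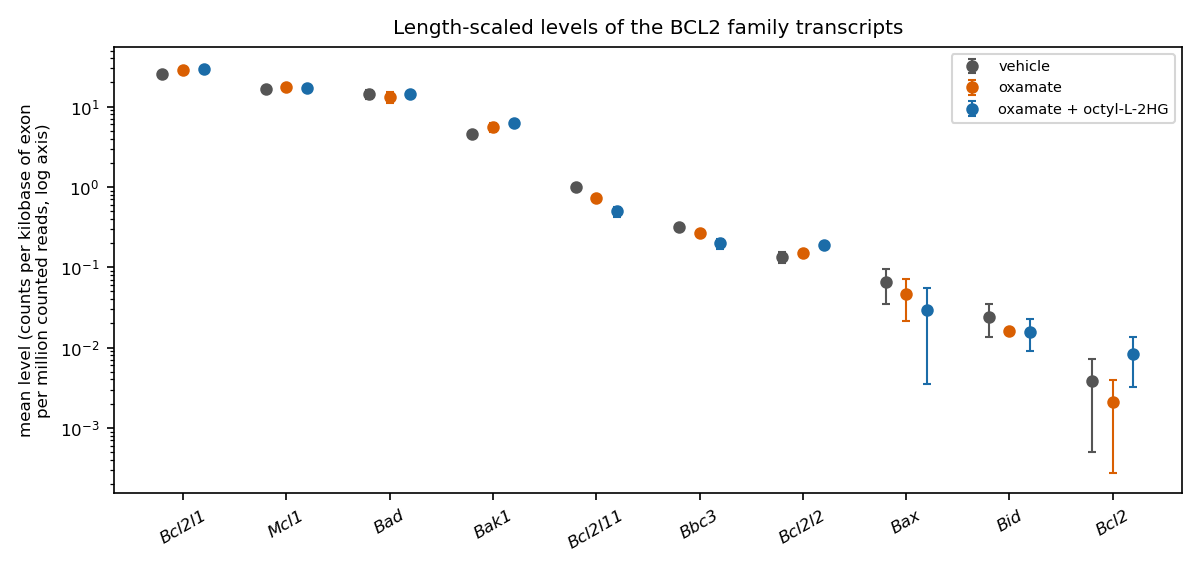
Mean level of each member in RPKM, on a log axis, for the 3 groups (points are means of 3 libraries, bars are SD). Bcl2l1, Mcl1, Bad and Bak1 sit highest, and Bax, Bid and Bcl2, with 2 to 12 counts per group, sit lowest. The bars of Bax and Bcl2 are wide in each group.

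Among the inhibitors, Bcl2l1 (ENSMUSG00000007659, chr2:152780668-152831728, - strand; gene positions are from GENCODE M21 on GRCm38) rose modestly with both compounds against vehicle, and Mcl1 passed the test in none of the comparisons. Values of 1 gene between libraries are normalized counts, the deposited count divided by the size factor of the library. Bcl2l1 had 4467, 3853 and 4109 normalized counts with vehicle, 5173, 4342 and 4318 with oxamate, and 5258, 5018 and 4943 with both compounds. The libraries with both compounds lay above all vehicle libraries, while oxamate libraries 5 and 6 lay within the vehicle range and library 4 above it. The log2 fold change of both compounds against vehicle was 0.27 (SE 0.08, 95% interval 0.11 to 0.43), with an adjusted p of 0.0168 by the quasi-likelihood test of edgeR, adjusted after Benjamini-Hochberg over all genes. Its adjusted p rose above 0.05 without vehicle library 2 (0.0953) or 3 (0.0526) and without library 7 (0.0862) or 8 (0.0549) of both compounds. Oxamate against vehicle gave 0.16 (interval -0.001 to 0.32, adjusted p 0.293), and both compounds against oxamate 0.11 (interval -0.05 to 0.27, adjusted p 0.43) by the same edgeR test. Without oxamate library 4 the latter became 0.21 with an adjusted p of 0.0169 by edgeR.

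Mcl1, which encodes a short-lived inhibitor, had 2020.0, 2010.0 and 1968 normalized counts with vehicle, 2151, 1998 and 2243 with oxamate, and 2199, 2152 and 2121 with both compounds. The groups lay within a narrow band, with oxamate values reaching into the ranges of both other groups. Log2 fold changes were 0.10 (interval -0.04 to 0.23) for oxamate against vehicle, -0.01 (interval -0.15 to 0.13) for both compounds against oxamate and 0.09 (interval -0.05 to 0.23) for both against vehicle, with adjusted p of 0.515, 0.972 and 0.422 by edgeR. Bcl2l2 was read 17 to 35 times per library after scaling. Its counts were 26, 18 and 25 with vehicle, 24, 27 and 21 with oxamate, and 31, 28 and 30 with both compounds. The last group was highest, with a log2 fold change of 0.56 (SE 0.22, interval 0.10 to 1.02) against vehicle and an adjusted p of 0.0868 by edgeR, which missed the threshold. Bcl2l2 shares 594 exon bases, 13.3% of its own, with Gm20521 on the same strand, which was at 0 counts in every library. Bcl2 itself was nearly unread, with 2, 2 and 0 counts with vehicle, 0, 1 and 1 with oxamate, and 1, 4 and 3 with both compounds. The summed counts of 4, 2 and 8 have exact Poisson 95% intervals of 1.09 to 10.2, 0.242 to 7.22 and 3.45 to 15.8, which overlap and cover counting error only.

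Of the effectors, Bak1 (ENSMUSG00000057789, chr17:27019810-27029009, - strand) rose with both compounds and Bax was at the limit of detection. Bak1 had 402.5, 369.6 and 396.5 normalized counts with vehicle, 544, 432 and 446 with oxamate, and 608, 576 and 507 with both compounds. All 6 treated libraries lay above the vehicle libraries, and oxamate library 4 lay among those with both compounds. Both compounds against vehicle gave a log2 fold change of 0.51 (SE 0.10, interval 0.31 to 0.71), a fold of 1.42, with an adjusted p of 0.00078 by edgeR's quasi-likelihood test. Oxamate against vehicle gave 0.29 (interval 0.08 to 0.49) with an adjusted p of 0.103, and both compounds against oxamate 0.22 (interval 0.02 to 0.42) with an adjusted p of 0.167 by edgeR. Without oxamate library 4 these became 0.17 and 0.34, and the latter passed with an adjusted p of 0.00561 by edgeR. Bak1 shares 437 bases, 18.2% of its exon bases, with Ggnbp1 on the opposite strand (GENCODE M21 annotation), and the strand setting of the counting is not given in the sources used here. Ggnbp1 had 113 to 169 counts with vehicle, 103 to 160 with oxamate and 108 to 126 with both compounds.

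Bax, whose product is the other pore-forming effector, had 6, 2 and 4 counts with vehicle, 3, 4 and 1 with oxamate, and 0, 2 and 3 with both compounds. The sums of 12, 8 and 5 have Poisson intervals of 6.20 to 21.0, 3.45 to 15.8 and 1.62 to 11.7, so that a difference was not detectable at this depth. Bax shares 192 exon bases with Gm45808 on the same strand, which was at 0 counts in every library. The ratio of Bax to Bcl2, a common summary of the balance of the family, rested on so few reads that it was poorly determined. It was 3.0 (exact 95% interval 0.909 to 12.8) with vehicle, 4.0 (0.798 to 38.7) with oxamate and 0.625 (0.161 to 2.17) with both compounds, as ratios of summed counts. Per kilobase of exon, which allows the levels of the 2 genes to be compared, the ratio was 17.4 (5.28 to 74.2), 23.2 (4.64 to 225) and 3.63 (0.935 to 12.6). The 3 intervals overlapped on either scale.

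The BH3-only genes held the member with the largest called change. Bcl2l11 (ENSMUSG00000027381, chr2:128126038-128162547, + strand), which encodes BIM, fell with oxamate and fell further when octyl-L-2HG was added. It had 310.1, 276 and 258 normalized counts with vehicle, 194, 222 and 203 with oxamate, and 128, 165 and 154 with both compounds, so that the 3 groups did not overlap. Group means were 281 ± 26.4, 206 ± 14.3 and 149 ± 19.0 (SD, n = 3). The log2 fold change was -0.44 (SE 0.11, interval -0.67 to -0.21) for oxamate against vehicle and -0.49 (SE 0.12, interval -0.74 to -0.25) for both compounds against oxamate, with adjusted p of 0.0183 and 0.00933 by edgeR's quasi-likelihood test. Adding octyl-L-2HG to oxamate therefore moved the Bcl2l11 transcript farther from its vehicle level. Both compounds against vehicle gave -0.94 (interval -1.17 to -0.70), a fold of 0.523, with an adjusted p of 6.19e-06 by edgeR. The call of oxamate against vehicle was lost without vehicle library 1 (adjusted p 0.0906) or 2 (0.0662) or oxamate library 6 (0.0584), and that of both compounds against oxamate without oxamate library 5 (0.0601) or library 7 (0.0769). The call of both compounds against vehicle held with each of the 9 libraries left out, with log2 fold changes between -1.01 and -0.84.

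Bad, the most abundant BH3-only transcript, had 1496, 1233 and 1149 normalized counts with vehicle, 1445, 1098 and 1100.0 with oxamate, and 1381, 1387 and 1355 with both compounds. In the first 2 groups 1 library stood above the others, and the groups overlapped. Log2 fold changes were -0.08 (interval -0.30 to 0.13), 0.15 (interval -0.07 to 0.37) and 0.07 (interval -0.15 to 0.28) in the order used above, with adjusted p of 0.748, 0.424 and 0.734 by edgeR. Without oxamate library 4, both compounds against oxamate gave 0.30 with an adjusted p of 0.00669 by edgeR. Bad shares 524 exon bases, 20.5% of its own, with the opposite-strand gene Gpr137, which had 5243 to 7543 counts per library. Bbc3, which encodes PUMA, a target of p53, had 28, 25 and 24 counts with vehicle, 22, 22 and 17 with oxamate, and 15, 15 and 14 with both compounds. Its normalized counts ran from 22.0 to 24.9, from 18.6 to 21.2 and from 13.1 to 17.3, so that the groups did not overlap. The log2 fold change of both compounds against vehicle was -0.61 (SE 0.25, interval -1.12 to -0.10), with an adjusted p of 0.094 by edgeR, which missed the threshold. Bid had 1 to 5 counts in each library, with sums of 10, 6 and 6 and overlapping Poisson intervals of 4.80 to 18.4, 2.20 to 13.1 and 2.20 to 13.1. Bid shares 628 exon bases with Bcl2l13 on the opposite strand, which had 1448 to 2103 counts per library.

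**Figure D2:**
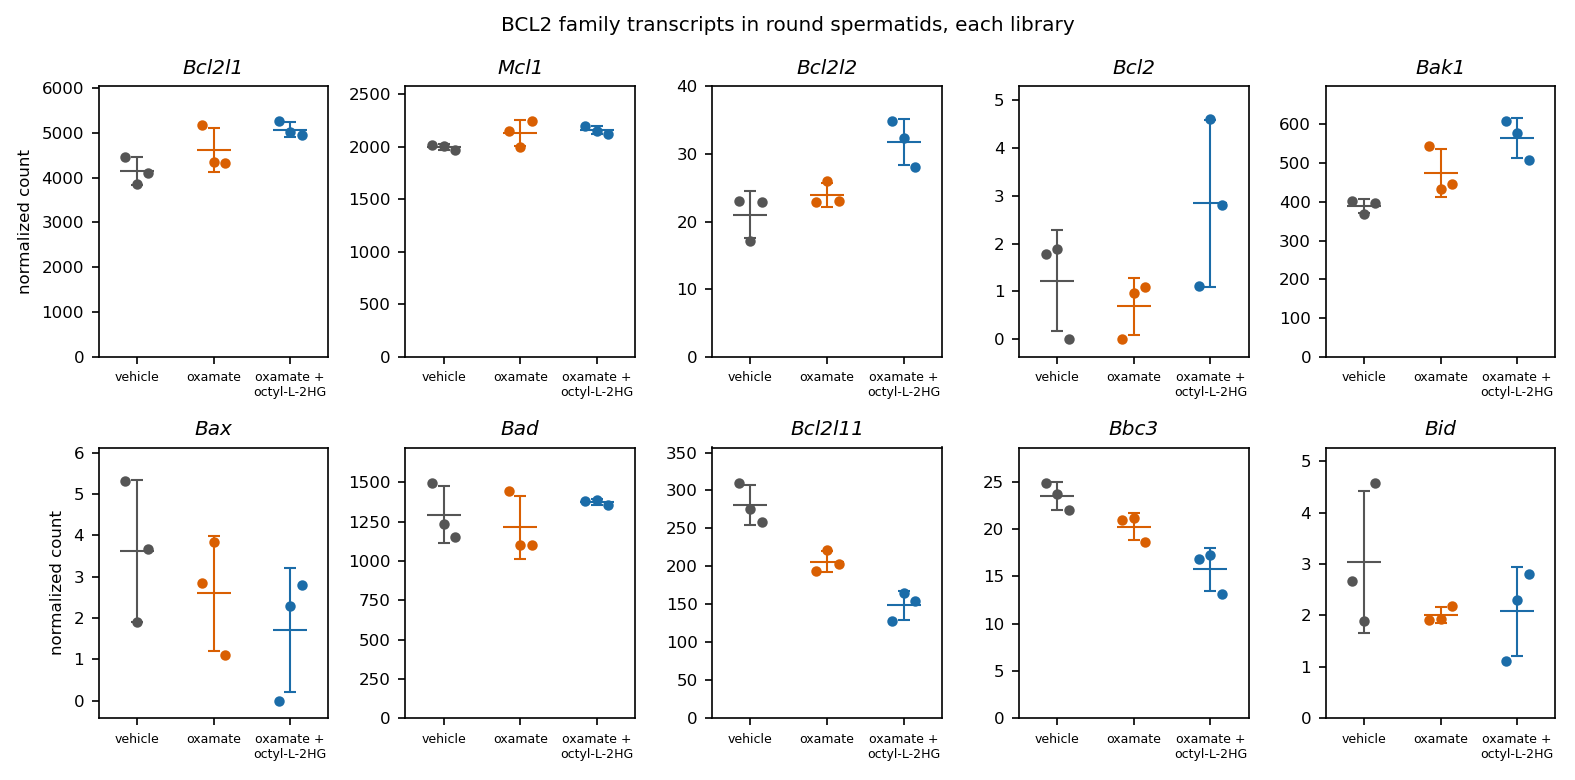
Normalized counts of the 10 members in each library (points), with the mean and SD of each group of 3 (bars), on linear axes that differ between genes. Bcl2l11 falls without overlap from vehicle (258 to 310.1) through oxamate (194 to 222) to both compounds (128 to 165), while Bak1 and Bcl2l1 are highest with both compounds.

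Over the 10 members, 1 was called in oxamate against vehicle, where 5.19% of all genes tested were called (3.97% higher and 1.22% lower). That count was 0 without library 1, 2 or 6. In both compounds against oxamate 1 member was called, beside 11.2% of all genes (3.18% higher and 8.06% lower). Without oxamate library 4 it was 4 members, with Bak1, Bad and Bcl2l1 called besides, where 17.9% of all genes were called, and without library 5 or 7 it was 0. In both compounds against vehicle 3 members were called, with Bak1 and Bcl2l1 higher and Bcl2l11 lower, beside 18% of all genes (7.48% higher and 10.6% lower). In the test of any difference among the groups 3 members were called, beside 19.8% of all genes, with adjusted p of 2.15e-05 for Bcl2l11, 0.0024 for Bak1 and 0.042 for Bcl2l1 by edgeR's quasi-likelihood test. With 10 members these shares differ from the background by 1 gene or a few, and nothing particular to the family can be read from them. The median log2 fold change of the 10 members was -0.15, 0.08 and 0.08 in the 3 comparisons, beside -0.01, -0.04 and -0.04 over all genes tested. The comparisons share libraries, since each group enters 2 of them. The group ranges did not overlap for 3, 4 and 6 members, Bbc3 and others that missed the test among them, while 5.19, 11.2 and 18% of all genes were called. Over all genes tested the ranges did not overlap for 21.3, 28.8 and 36.5%, and nothing particular to the family is read from these counts.

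**Figure D3:**
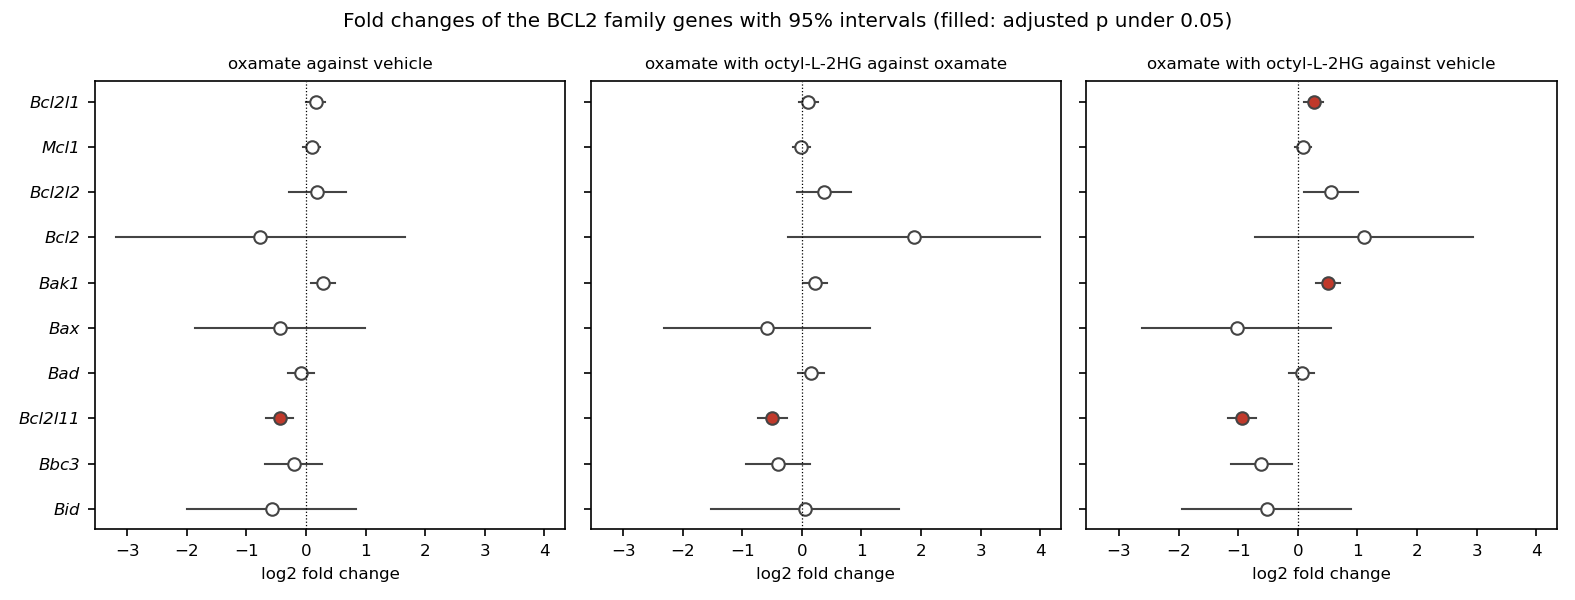
Log2 fold changes of the 10 members (points) with 95% intervals (lines) in each comparison, filled where the adjusted p was under 0.05. Bcl2l11 is filled on the lower side in each panel, Bak1 and Bcl2l1 are filled on the higher side in the last panel, and the intervals of Bcl2, Bax and Bid are the widest.

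Within each library the counts of Bcl2l11 and of the main inhibitors diverged. These ratios do not depend on scaling between libraries, and were chosen after the values of the genes were seen, so they are given as a description. The log2 ratio of Bcl2l11 to Bcl2l1 counts was -3.88 ± 0.10 (SD, n = 3) in the vehicle group, -4.48 ± 0.23 in the oxamate group and -5.10 ± 0.23 with both compounds. Its library values ran from -3.99 to -3.80, from -4.73 to -4.29 and from -5.36 to -4.93, so that the groups did not overlap. Against Mcl1 the log2 ratio was -2.83 ± 0.12, -3.37 ± 0.17 and -3.86 ± 0.21. By length-scaled level, Bcl2l11 made up 6.07 to 6.52% of the BH3-only transcripts with vehicle, 4.04 to 5.92% with oxamate and 2.83 to 3.59% with both compounds. The log2 ratio of Bak1 to Bcl2l1 moved less, from -3.41 ± 0.05 to -3.28 ± 0.04 and -3.17 ± 0.10, and that of Bad to Bcl2l1 was -1.69 ± 0.14, -1.93 ± 0.08 and -1.88 ± 0.04.

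The fall of Bcl2l11 moved with that of several transcripts of the spermatid program. Of the 10 round spermatid markers, 1 was called higher and 4 lower with oxamate against vehicle, where 3.97% of all genes were higher and 1.22% lower. With both compounds against oxamate 5 were lower, where 3.18% of all genes were higher and 8.06% lower. With both against vehicle 2 were higher and 5 lower, where 7.48% of all genes were higher and 10.6% lower. The summed level of these markers was 2022 to 2047 CPM with vehicle, 1867 to 1964 with oxamate and 1779 to 1806 with both compounds. Mean CPM in the 3 groups was 139, 101 and 78.0 for Prm1, a protamine, 231, 183 and 131 for Tnp2, a transition protein, and 34.5, 31.0 and 16.6 for Tssk6, a spermatid kinase. Other markers of the list had higher means in the treated groups than with vehicle, at 256, 262 and 290.3 for Acrv1, 329, 341 and 364 for Acr, both acrosomal, and 262, 305 and 284 for Catsper1, a sperm calcium channel. Their part in the Bcl2l11 result was not tested. No spermatocyte marker was called in these comparisons, and none of the tested markers of Sertoli, Leydig, peritubular or leukocyte cells. Of 3 endothelial markers 1 was called higher in each comparison with vehicle, and of 6 spermatogonial markers 1 was called lower with both compounds against vehicle.

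The remaining apoptosis genes, in 7 lists of 7 to 17 genes tested, had few calls, and the share of all genes called stands beside them at 5.19% for oxamate against vehicle, 11.2% for both compounds against oxamate and 18% for both against vehicle. At these list sizes a share differs from that background by a gene or a few, and nothing particular to a list is read from it. Without oxamate library 4 the shares were 9.28%, 17.9% and 25.1%, and counts that changed without it follow each list. Of 12 further BCL2 family genes tested (15 listed), none was called with oxamate against vehicle, and 1 was called higher in each of the other comparisons. The gene called in both was Bcl2l13, a mitophagy receptor, with 1525 ± 97.7, 1625 ± 65.4 and 1931 ± 50.7 normalized counts (SD, n = 3) and a log2 fold change of 0.32 for both compounds against vehicle (adjusted p 0.00278 by edgeR), a call that held with each library left out. Its call against oxamate (0.22, adjusted p 0.0459 by edgeR) was lost without library 5, 6, 7, 8 or 9, with adjusted p up to 0.171, and with scaling by total counts. With oxamate, Bcl2l15, named after its values were seen and with 12 to 32 counts per group, had a log2 fold change of 1.51 that missed the test (adjusted p 0.0643 by edgeR), and it was called without library 4 (0.0478) or with no filter on low counts (0.0476). Bcl2l14, also named after its values were seen, was called in no comparison. Its vehicle mean of 13410 normalized counts, not scaled to length, lay above the 4143 of Bcl2l1. Of 8 apoptosome and caspase genes tested (9 listed), 1 was called higher with oxamate and with both compounds against vehicle. It was Casp9, the initiator caspase of the mitochondrial pathway, named after its values were seen, with 38.4 ± 5.47, 60.2 ± 9.43 and 58.0 ± 0.380 normalized counts. Neither call held under DESeq2. The call with oxamate was also lost in a fit of only the groups compared and without library 2, 3, 4 or 5 (adjusted p up to 0.17 by edgeR), so that the list had 0 calls without library 4. That with both compounds was lost with total counts and without library 2, 3, 7, 8 or 9 (up to 0.128). Of 7 genes for inhibitors of apoptosis proteins and their antagonists (8 listed), Birc6, a large ubiquitin ligase, was called higher with oxamate (log2 fold change 0.29, adjusted p 0.0245 by edgeR), a call lost without library 1, 2, 5, 6 or 8 (up to 0.107) and with only the groups compared. Septin4, whose ARTS isoform antagonizes XIAP, was called lower with both compounds against oxamate (-0.23, adjusted p 0.0286 by edgeR), a call lost without library 5, 6, 7, 8 or 9 (up to 0.138), with DESeq2 size factors, with no filter and with only the groups compared. In that comparison the list had 4 calls without library 4 and 2 with total counts.

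Of 9 mitochondrial partners tested (10 listed), Opa1, which shapes the inner membrane, was called higher with both compounds against oxamate (0.22, adjusted p 0.033 by edgeR), a call lost without library 5, 7, 8 or 9 (up to 0.139) and with total counts. Marchf5, a ubiquitin ligase of the outer membrane, was called lower with both against vehicle (-0.26, adjusted p 0.0234 by edgeR), a call lost without library 1, 3, 7, 8 or 9 (up to 0.0891) and with no filter. The list had 3 calls against oxamate without library 4, with no filter or under DESeq2, and 2 against vehicle without library 4 or under DESeq2, or 3 with only the groups compared. Of 17 genes for proteins that modify or regulate members, none was called with oxamate against vehicle, 1 was lower with both compounds against oxamate, and 3 were higher and 1 lower with both against vehicle, beside the 18% of all genes called there. Akt1, whose kinase phosphorylates BAD, rose from 1070.0 ± 27.9 normalized counts with vehicle to 1441 ± 28.4 with both compounds (0.41, adjusted p 0.000482 by edgeR). Fbxw7 and Huwe1, which encode components of ubiquitin ligases that act on MCL1, had log2 fold changes of 0.32 and 0.24 (adjusted p 0.00616 and 0.0476 by edgeR). The calls of Akt1 and Fbxw7 held with each library left out, and that of Huwe1 was lost without library 1, 2, 5, 7, 8 or 9 (adjusted p up to 0.215 by edgeR), with total counts and with a minimum mean of 100 counts. Pim1, another kinase of BAD, fell by 0.35 on the log2 scale against vehicle (adjusted p 0.00846 by edgeR), from 417 ± 34.8 to 332 ± 18.6 normalized counts, and was the gene called lower against oxamate (-0.38, adjusted p 0.0095 by edgeR). The first call was lost without library 1 or 9 (up to 0.0544) and the second without library 8 or 9 (up to 0.0578). The counts of this list moved with the settings, and without library 4 they were 3, 5 and 6 in the 3 comparisons. With oxamate, 1 gene was called with no filter or without library 3. With both compounds against oxamate, 4 were called under DESeq2, with its size factors, with no filter or with edgeR's own filter, and none without library 8 or 9. With both against vehicle, 6 were called with no filter or with only the groups compared, and 2 without library 1 or 9.

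Of 11 p53-arm genes tested (12 listed), none was called in the first 2 comparisons, and 2 were called higher and 1 lower with both compounds against vehicle, where 18% of all genes were called. Zmat3, a p53 target, had 761 ± 72.9 normalized counts with vehicle and 993 ± 23.1 with both compounds (0.36, adjusted p 0.00388 by edgeR). The others, named after their values were seen, were Trp53inp1, with 55.6 ± 1.44 and 78.8 ± 12.2 normalized counts, and Cdkn1a, which encodes the cell cycle inhibitor p21, with 58.9 ± 5.48 and 33.9 ± 5.16. The calls of Zmat3 and Cdkn1a held with each library left out, and that of Trp53inp1 was lost without library 1, 2, 3, 8 or 9 (adjusted p up to 0.182 by edgeR), with total counts and under DESeq2. Without library 4 the counts of this list in the 3 comparisons were 1, 1 and 4. With oxamate, Mdm2 was the gene called without library 4 or under DESeq2, and Cdkn1a the gene called with total counts or with edgeR's own filter, both named after their values were seen. With both compounds against vehicle 1 to 4 were called over the alternatives at the same threshold. Of 7 death receptor genes tested (8 listed), none was called with oxamate against vehicle, 1 was called lower with both compounds against oxamate, and 1 higher and 1 lower with both against vehicle. Ripk1, a kinase of the receptor complex, was the gene called higher with both against vehicle (0.33, adjusted p 0.027 by edgeR), a call lost without library 3, 7, 8 or 9 (up to 0.11) and with total counts. Fasl, the ligand of FAS and named after its values were seen, was the gene called lower in both comparisons, with 48.3 ± 3.35, 40.2 ± 5.44 and 20.9 ± 0.392 normalized counts, and its calls held with each library left out. Of this list, 2 genes were called with both compounds against oxamate without library 4 or with no filter. Median log2 fold changes of these lists over the genes tested lay between -0.36 and 0.15, beside -0.01 to -0.04 for all genes.

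**Figure D4:**
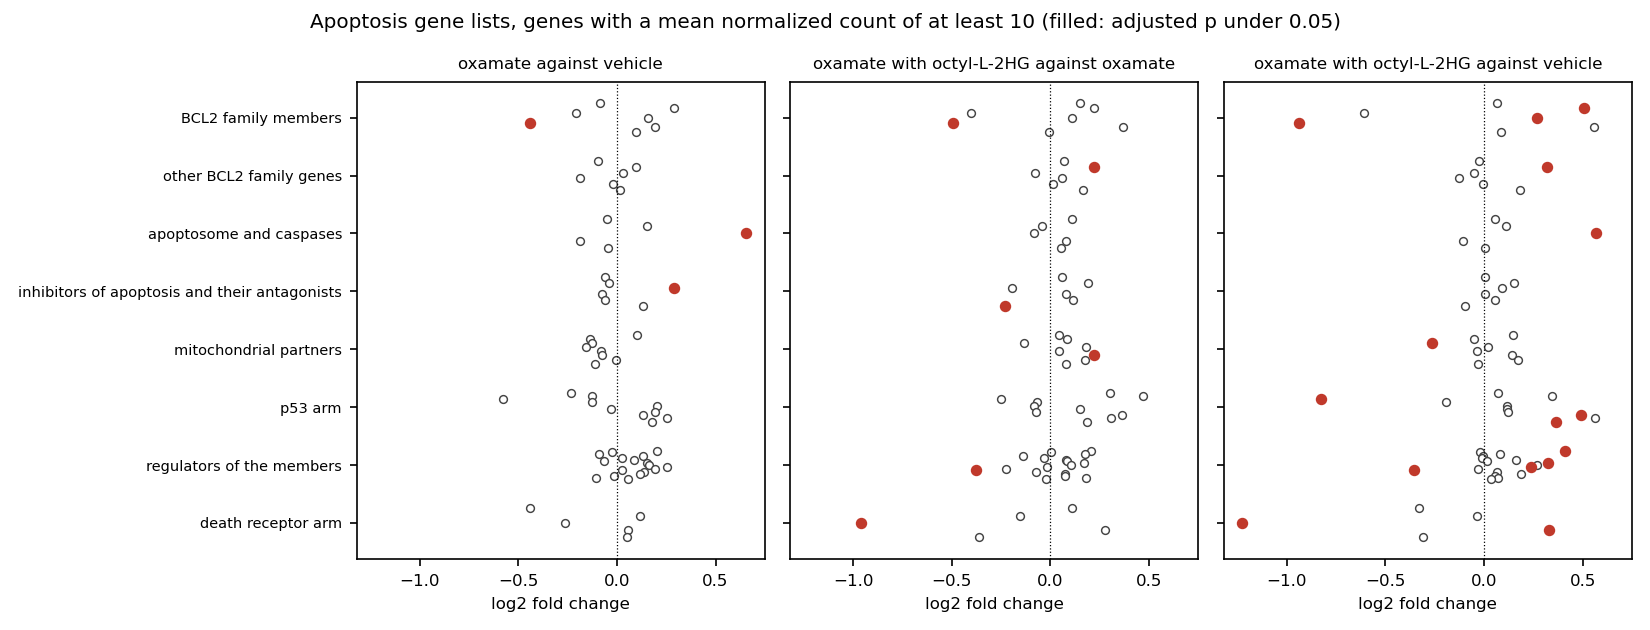
Log2 fold changes of genes of the 8 apoptosis lists whose normalized counts averaged 10 or more, in each comparison, filled where the adjusted p was under 0.05. Filled genes are few in oxamate against vehicle and most frequent in the last panel, where 18% of all genes were called.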

How the data were processed

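RNA of sorted RS was sequenced in 9 libraries, 3 per group. Per the labels, the authors trimmed reads with cutadapt 2.10, aligned them with TopHat2 2.1.1 to mouse build GRCm39 and obtained gene counts with HTSeq 2.01, using Ensembl gene models. The authors deposited these raw counts, and beside them a normalized signal per gene, the count divided by the DESeq2 1.36.0 size factor of the library. Library kits were stranded. Reads of overlapping or near-identical genes could have gone to either gene or been dropped. Of the 55414 genes listed, 6250 have no counts. Groups were taken from the labels.

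Genes whose counts summed to 10 or more entered the test, which left 25128. edgeR 4.0.16 (R 4.3.3) was used, with a robust quasi-likelihood fit of all 9 libraries with TMM normalization and group as the only term, Benjamini-Hochberg adjustment over all genes and a threshold of 0.05. The standard error is the absolute log2 fold change divided by the square root of F. The script was tested on simulated data. Exon lengths and overlaps came from GENCODE M21 on GRCm38, matched by gene identifier for 99.6% of genes tested, and promoters from RefSeq on GRCm38.p6. No coordinates were converted between builds. Members and lists were chosen with earlier results of these data known. All members are named. From each other list, named genes were called in a pairwise comparison and had a mean normalized count of at least 100, at most 4 per list, and others named are marked as chosen after their values were seen. Alternatives were DESeq2 1.42.0, other scalings, other filters, other thresholds, fits restricted to the groups of a comparison, and fits without each library.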

Additional observations from a re-analysis of the deposited data

How the results depend on the processing

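The fall of Bcl2l11 and the rise of Bak1 with both compounds against vehicle kept their calls under all 9 leave-one-out fits and all 9 other alternatives. Of these alternatives, the unadjusted p under 0.05 could not undo a call. The fits without oxamate library 4, 5 or 6 removed no library of either group compared. Members called in oxamate against vehicle numbered 0 to 1 with each library left out (1 with all libraries), 0 at an adjusted p under 0.01 and 2 at an unadjusted p under 0.05 (edgeR). In both compounds against oxamate they numbered 0 to 4 with each library left out, with 0 without oxamate library 5 or library 7 and 4 without oxamate library 4, and 2 at an unadjusted p under 0.05. In both compounds against vehicle they numbered 2 to 3 with each library left out (2 without vehicle library 2 or 3 or library 7 or 8), 2 at an adjusted p under 0.01 and 5 at an unadjusted p under 0.05. Per kilobase the log2 ratio of Bax to Bcl2 became 4.12 with vehicle and 1.86 with both compounds, by its construction, since Bcl2 has longer exons. Changes near 0 turned sign. Mcl1 in both compounds against oxamate became 0.018 with DESeq2 or with its size factors alone, 0.037 with no filter, 0.011 with edgeR's own filter, 0.014 with only these groups, and 0.013, 0.005 and 0.025 without vehicle library 3, oxamate library 4 or oxamate library 6. With each library left out Mcl1 ran from -0.052 to 0.025, Bad in oxamate against vehicle from -0.236 to 0.034 (positive without vehicle library 1), and Bid in both compounds against oxamate from -0.243 (without library 9) to 0.329. Over all alternatives, fold changes of members kept their direction and call in 487 cases, gained a call in 7, lost one in 11 and turned sign in 10. The gains came from the fit without oxamate library 4 and from the unadjusted threshold, under which a call cannot be lost.

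Over all genes, calls in oxamate against vehicle numbered 1303, and 745 with only those groups, 659 without vehicle library 2, 2288 without oxamate library 4, 602 at an adjusted p under 0.01 and 4348 at an unadjusted p under 0.05. In both compounds against oxamate they numbered 2823, and 4415 without oxamate library 4, 1429 without oxamate library 5, 1396, 1465 and 1742 without libraries 7, 8 and 9, and 1261 and 5934 at those thresholds. In both against vehicle they numbered 4534, and 2970 without library 7, and 2607 and 7527 at those thresholds. For any difference among the groups they numbered 4974, and 3154 without library 7, 3212 without library 8, and 2774 and 7910 at those thresholds. Scaling by total counts moved the split of calls to 421 higher and 2516 lower in both compounds against oxamate (798 and 2025 with TMM) and to 1231 and 3367 in both against vehicle (1879 and 2655 with TMM). The cause was not tested. DESeq2 gave no adjusted p for 3 members of low count. No paired analysis was made, because the replicate numbers run on from group to group and do not show whether any preparation was shared between groups. Depth limits Bax, Bid and Bcl2, which had 2 to 12 counts per group.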
